A study of Mus musculus with 9 samples.

Results

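Open chromatin was measured at 10 genes of glycolysis in tumours of the mouse melanoma line B16. Every peak that overlapped one of these gene bodies or lay within 10 kb of it was taken from the peak lists of 9 ATAC-seq libraries. In this assay a loaded transposase inserts adaptors wherever chromatin lets it reach the DNA. Overlapping peaks of different libraries were joined, which gave 30 sites of the 32649 regions in all lists. The libraries formed 3 groups of 3. B16_IFNg were B16 cells kept in interferon gamma before they were injected into mice, for 2 weeks in replicates 1 and 2 and for 3 weeks in replicate 3. Res499 were untreated cells of a line, labelled 499, that was derived from B16 and resists immune checkpoint blockade. B16_untreated were B16 cells without interferon. The cells of all 3 groups grew as tumours in mice and were sorted after harvest on day 15; the sorting markers and the age and strain of the mice are not given in the sources used here, nor is whether replicates came from separate mice. The genes were chosen by what these same lists showed, the loss of the Gpi1 start in Res499 among it, so calls, folds and ranks are given as a description with no test. With 3 libraries against 3 an exact test could not go below p = 0.1.

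Glycolysis turns glucose into pyruvate in the cytosol and yields ATP without oxygen, and many tumours run it at a high rate and export the end product as lactate. Slc2a1 carries glucose into the cell and Hk2 traps it by phosphorylation. Gpi1 and Pfkl rearrange and phosphorylate the sugar again, Aldoa and Tpi1 split it into interchangeable triose phosphates, Gapdh, Pgam1 and Pkm harvest energy from these, and Ldha reduces pyruvate to lactate. Several of these genes are classical targets of the hypoxia-inducible factors, which bind a short core motif in their promoters.

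The promoter windows of 4 genes are shown because they cover the site that differed between groups (Gpi1), the start with the most hypoxia-response cores (Ldha) and the entry and a later step of the pathway with a start that was open in all 9 libraries (Slc2a1 and Pgam1). They come from RefSeq (GRCm38.p6) and run from 250 bases before to 50 after the start, 5′ to 3′ on the strand of the gene. Capitals mark ACGTG or GCGTG, the hypoxia-response core, on either strand, and overlapping matches run together.
Gpi1 (chr7:34230287-34230586, minus strand): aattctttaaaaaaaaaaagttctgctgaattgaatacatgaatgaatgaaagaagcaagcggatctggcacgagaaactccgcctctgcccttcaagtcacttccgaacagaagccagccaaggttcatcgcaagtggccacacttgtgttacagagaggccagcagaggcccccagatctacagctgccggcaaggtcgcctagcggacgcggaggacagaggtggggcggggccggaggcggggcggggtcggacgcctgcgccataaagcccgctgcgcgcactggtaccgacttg
Ldha (chr7:46845554-46845853, plus strand): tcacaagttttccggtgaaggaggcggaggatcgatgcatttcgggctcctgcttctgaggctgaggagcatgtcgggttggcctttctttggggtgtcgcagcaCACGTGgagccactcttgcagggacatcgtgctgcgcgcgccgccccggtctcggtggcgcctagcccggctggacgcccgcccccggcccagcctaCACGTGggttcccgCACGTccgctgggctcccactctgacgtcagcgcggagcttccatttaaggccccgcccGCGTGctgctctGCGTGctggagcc
Slc2a1 (chr4:119108495-119108794, plus strand): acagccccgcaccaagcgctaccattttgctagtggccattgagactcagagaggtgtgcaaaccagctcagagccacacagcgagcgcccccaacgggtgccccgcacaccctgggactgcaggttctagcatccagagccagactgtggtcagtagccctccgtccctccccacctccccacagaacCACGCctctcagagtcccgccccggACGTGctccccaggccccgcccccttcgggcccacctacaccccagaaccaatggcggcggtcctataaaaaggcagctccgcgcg
Pgam1 (chr19:41911621-41911920, plus strand): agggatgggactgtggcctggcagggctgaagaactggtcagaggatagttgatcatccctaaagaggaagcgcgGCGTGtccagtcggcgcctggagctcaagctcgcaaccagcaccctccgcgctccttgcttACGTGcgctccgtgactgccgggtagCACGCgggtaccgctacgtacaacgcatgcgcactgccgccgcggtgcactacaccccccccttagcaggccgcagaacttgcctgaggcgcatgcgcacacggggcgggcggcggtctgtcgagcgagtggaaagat

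The Gpi1 window holds no match to the core on either strand, and 2 matches to the GC box GGGCGG. Ldha has 7 core matches, several of which overlap because each of its 2 E-boxes (CACGTG, which reads the same on both strands) holds the core on both strands. Slc2a1 has 2 core matches and Pgam1 has 3. Over the 14 start windows listed for the 10 genes, 8 held ACGTG and 6 held GCGTG, against 20.9% and 38.5% of the 21263 windows of coding genes. Counted by gene these were 7 and 5 of the 10. The inner Aldoa windows overlap and hold the same match, so the windows are not independent. The GC box was in 10 of the 14 windows and in 46.2% of all windows, and the E-box in 1 and in 7.84%. The GC content of the 14 windows ran between 52.7% and 67.3%. All but the most upstream Aldoa window lay above the median of all windows, 56.3%. The ratio of observed to expected CpG was in most of them above the median of all windows, 0.567. It was below at that Aldoa window (0), Gapdh (0.501) and the second Ldha start (0.540). Each motif named above holds the pair CG, and the part of this composition in the counts was not tested. A match is a string of letters and says nothing of binding.

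The lists differ in length, from 9214 to 25362 peaks, with 16231, 13163 and 11181 in B16_IFNg, 15385, 9214 and 11765 in Res499 and 15042, 25362 and 20136 in B16_untreated. Sites are therefore given both for the full lists and for equal-length lists of the 9214 most significant peaks of each library, and the rank of a peak is its place in its own list by the caller's −log10 p, with 1 the most significant. Fold is the caller's enrichment of the summit over the local background, and both are the authors' values. The fold and the −log10 p together fix the number of fragments that pile up at the summit, called the pileup here. For this the fold was taken as the pileup over the local background, with 1 added to each. The shortest peak of a list divides the libraries into a long fragment class (B16_IFNg replicate 3, Res499 replicate 3 and B16_untreated replicates 1 and 3) and a short class. The labels do not name this difference, and values are given within each class where groups differ. As a check of the sort, 0 of 9 leukocyte genes and 0 of 4 endothelial genes had a peak within 1 kb of an end in any library, and neither did 3 keratinocyte genes. Of 10 melanocyte genes 3, Mitf, Dct and Pmel, had such a peak in all 9, whereas Ednrb and Gpr143 had none. Exactly on a listed start, in the full lists, Mitf had a peak in all 9, while Tyr and Dct had one in 0 B16_IFNg, 0 Res499 and 3 B16_untreated libraries and Tyrp1 in 1, 0 and 3. Within 1 kb of an end, the 10 genes and 3 libraries of a group allowed 30 calls. In the full lists 15 were made in B16_IFNg, 13 in Res499 and 19 in B16_untreated. In the equal-length lists 11, 10 and 12 were made, with Tyr at 1 in each group and Dct at 2. Tyrp1, a pigment enzyme, had such a peak in 2 B16_IFNg, 0 Res499 and 3 B16_untreated equal-length lists, the same calls per group as the Gpi1 start. The part of these pigment genes in the Gpi1 result was not tested. Of 4 fibroblast genes 3 had no such peak in any library. The other, Col1a1, had one in 3 B16_IFNg, 1 Res499 and 3 B16_untreated full lists, and in 2, 1 and 0 equal-length lists.

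The starts of most glycolytic genes were open in every group. The site at the start had a peak in all 9 libraries for 7 of the 10 genes: Slc2a1, Hk2, Pfkl, Aldoa, Gapdh, Pgam1 and Pkm. Tpi1 and Ldha had one in 8 libraries and Gpi1 in 6. A peak of such a site need not cover the start itself, and in Res499 replicate 2 those of Pfkl and Aldoa did not. Of the 30 sites, 11 had a peak in all 9 libraries, against 18.9% of all 32649 regions, and 7 were listed in 1 library only, against 36.8%. Beside the starts, the other 4 of these 11 lay in the flanks, near other genes.

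**Figure D1:**
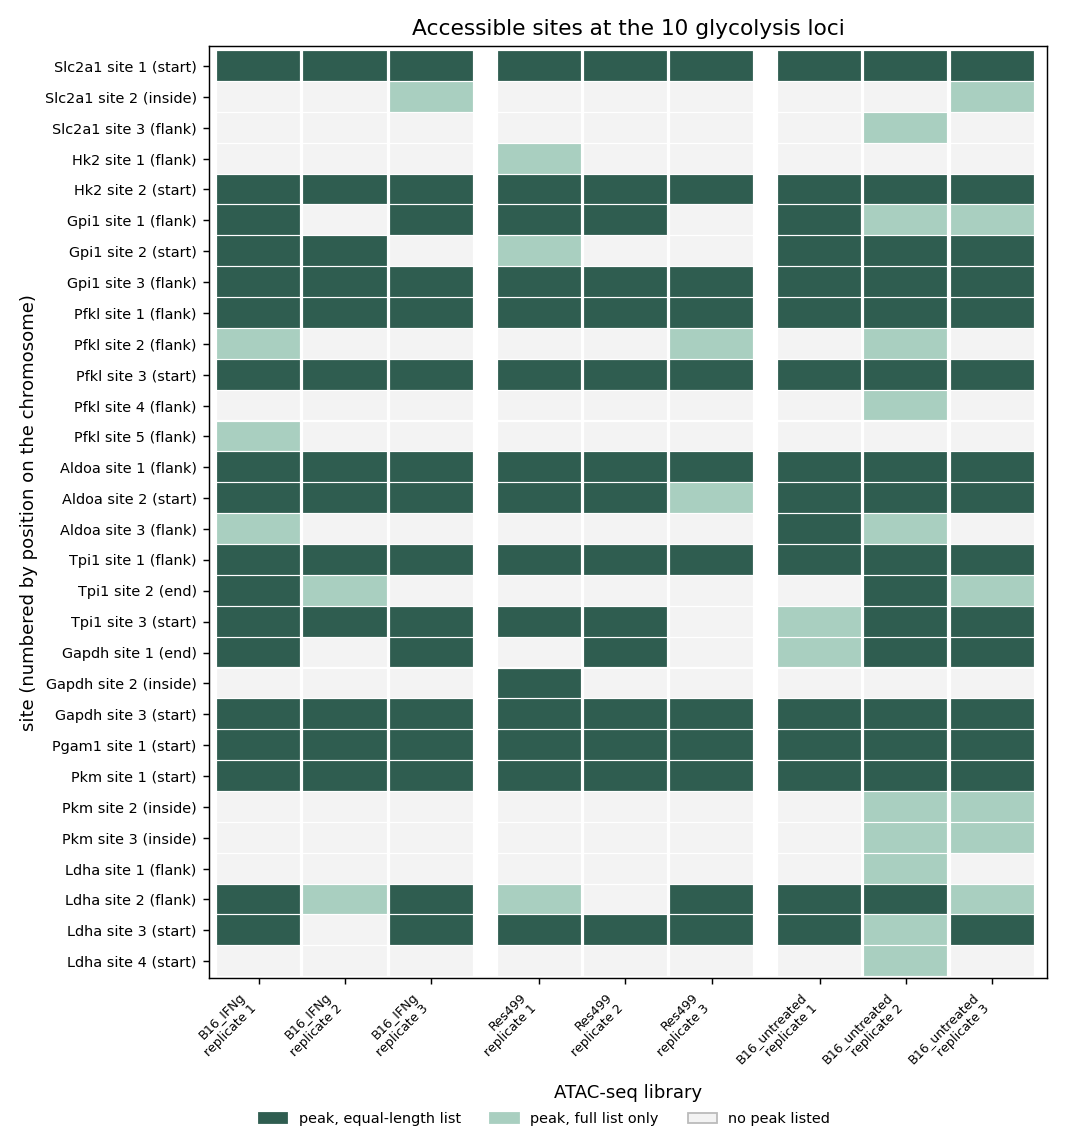
Sites at the 10 loci (rows, numbered along the chromosome, with their place in brackets) in the 9 libraries (columns). Dark cells are peaks in the equal-length lists, pale green cells are peaks in the full list only and grey cells have no peak; the Gpi1 start (site 2) is dark in 2 B16_IFNg, 0 Res499 and 3 B16_untreated libraries.

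In equal-length lists, gained means called in all 3 libraries of the first group and in none of the other, and lost the reverse. At the glycolysis loci 1 site of 17 was lost in Res499 against B16_untreated, the start of Gpi1, where 1.52% of the 9360 regions called in at least 3 of the 6 libraries were lost. The rule that chose the genes used this contrast, so nothing is read from that count. Gained there were 0 of 17, against 0.919% of all regions. In B16_IFNg against B16_untreated 0 of 17 were gained and 0 lost, against 0.59% and 0.906% of 9495 regions. In Res499 against B16_IFNg 0 of 16 were gained and 0 lost, against 0.627% and 0.875% of 9254. In the full lists 0 sites were called in any comparison. There, B16_IFNg against B16_untreated had 0.0318% of all regions gained and 4.9% lost (19 sites tested), Res499 against B16_untreated 0.0533% and 8.06% (17 sites) and Res499 against B16_IFNg 0.277% and 1.15% (17 sites). At shares this low, so few sites cannot tell the loci from the rest.

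Gpi1 (chromosome 7, 34201327 to 34230336, minus strand) codes for glucose-6-phosphate isomerase, which turns glucose 6-phosphate into fructose 6-phosphate. The site at its start (34229859 to 34230458) had folds of 7.60 and 5.41 in B16_IFNg replicates 1 and 2, with no peak in replicate 3. In Res499 it had a fold of 4.27 in replicate 1 and no peak in replicates 2 and 3. In B16_untreated the folds were 4.41, 8.23 and 6.19. The single Res499 fold lay below the 5 others, next to the 4.41 of B16_untreated replicate 1, and the B16_IFNg folds lay within the range of B16_untreated. The groups also differed in how many libraries listed a peak.

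The ranks were 2743 and 7226 in the B16_IFNg libraries, 9609 in Res499 replicate 1 and 6805, 5316 and 4937 in B16_untreated. The Res499 peak thus lay just outside the 9214 used, and in the full lists the site was called in 2 B16_IFNg, 1 Res499 and 3 B16_untreated libraries. The pileup was 28 and 15 fragments in B16_IFNg, 19 in Res499 replicate 1 and 39, 36 and 44 in B16_untreated. Of the 300 bases of the promoter window printed above, peaks covered 147, 127 and 0 in B16_IFNg, 132, 0 and 0 in Res499 and 167, 172 and 169 in B16_untreated. The depth of the libraries is not known, so the pileups show the counts behind each peak and are not compared between groups.

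How strong an unlisted peak could have been depends on the local background, which was read from the next site upstream. At that background, a peak would have been listed from a pileup of 15 fragments in B16_IFNg replicate 3, 10 in Res499 replicate 2 and 19 in Res499 replicate 3, folds of 3.05, 3.80 and 2.71. Accessibility below these levels would not have been listed at that background. In every library that listed both sites the background was higher at the start, for example 3.68 against 3.14 in Res499 replicate 1. The pileup needed at the start may thus have been higher. Within the long fragment class the start was called in 0 of 1 B16_IFNg, 0 of 1 Res499 and 2 of 2 B16_untreated libraries. Within the short class the equal-length lists had it in 2 of 2 B16_IFNg, 0 of 2 Res499 and 1 of 1 B16_untreated libraries. The only B16_IFNg library without it is also the only one of the long class and the only one with 3 weeks of interferon, which cannot be told apart. The call also rests on how peaks are ranked: with peaks ranked by fold the start was called in 2 B16_IFNg, 0 Res499 and 0 B16_untreated libraries, and the loss was not called.

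**Figure D2:**
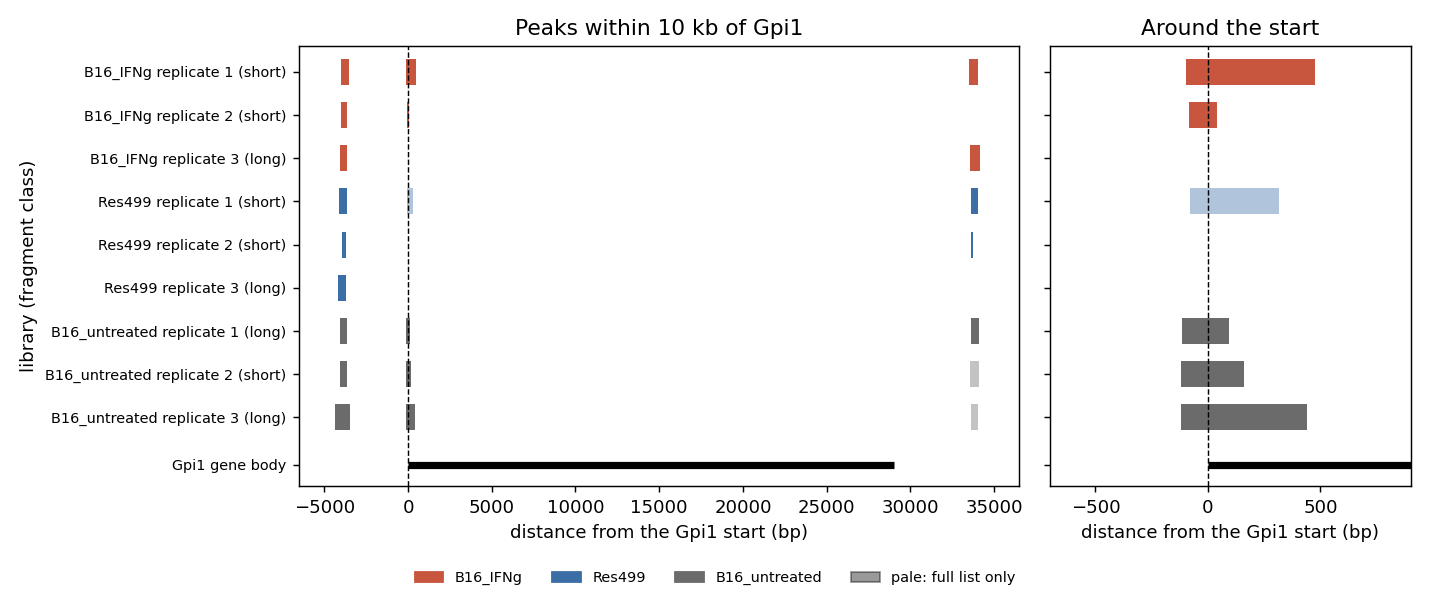
Peaks around Gpi1 in each library (rows), by distance in bp from the start of the gene in its direction of transcription, with all 3 sites on the left and the start enlarged on the right. Bars span the listed peaks, pale bars are in the full list only, and the upstream site has a peak in all 9 libraries while the start has none in B16_IFNg replicate 3 and Res499 replicates 2 and 3.

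The other 2 sites of the Gpi1 locus did not share this pattern. The upstream site (34233814 to 34234679), 3478 bp from the start and at the ends of the long non-coding RNA genes Gm12758 and Gm12762, had a peak in all 9 equal-length lists. Its folds were 6.41, 6.49 and 5.15 in B16_IFNg, 7.001, 5.18 and 3.66 in Res499 and 5.28, 8.44 and 6.15 in B16_untreated, and the groups overlap. The site beyond the other end of Gpi1 (34196207 to 34196844) lies at the end of Pdcd2l and was called in 2 B16_IFNg, 2 Res499 and 1 B16_untreated equal-length lists. In the full lists it was called in 2, 2 and 3.

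Regions with the same calls as the Gpi1 start in all 9 equal-length lists numbered 19, of which 7 touched or neighboured (1 kb at most) the end of a coding gene. Closest in rank, by the mean absolute difference over the 5 libraries that called them, were the ends of Cul2 (1608 places), Rax (1719), Pdha1 (1722), Ncam2 (1843) and Rp2 (1898). Pdha1 codes for a subunit of pyruvate dehydrogenase, which takes pyruvate on into the mitochondrion. In the full lists these regions had a peak in 1 Res499 library, except Rax with 2.

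At the entry of the pathway the starts were open throughout. Slc2a1 (chromosome 4, 119108745 to 119137330), the glucose transporter GLUT1, had a site at its start (119108503 to 119109313) with folds of 8.60, 7.52 and 5.65 in B16_IFNg, 6.50, 7.13 and 5.29 in Res499 and 6.18, 8.52 and 7.69 in B16_untreated. The mean folds were 7.26 ± 1.49 in B16_IFNg, 6.31 ± 0.937 in Res499 and 7.46 ± 1.19 in B16_untreated (SD, n = 3 each), and the groups overlap. A lncRNA, Gm52706, ends in the same site. Of its further sites, 1 inside the gene was listed in B16_IFNg replicate 3 and B16_untreated replicate 3, with folds of 4.31 and 5.78, and 1 downstream in B16_untreated replicate 2.

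Hk2 (chromosome 6, 82725025 to 82774454), hexokinase 2, had the most significant start of the 10 genes in 8 of the 9 libraries, all but B16_untreated replicate 1, where Pfkl (1336) and Gapdh (1393) ranked higher. Its folds were 9.29, 10.9 and 7.15 in B16_IFNg, 7.18, 6.89 and 7.47 in Res499 and 5.74, 14.8 and 9.39 in B16_untreated. The ranks were 673, 260 and 447 in B16_IFNg, 778, 698 and 90 in Res499 and 1850, 195 and 287 in B16_untreated. The B16_untreated libraries held both the lowest and the highest fold, so the groups overlap. In 4 libraries the site (82773295 to 82774961) was made of 2 peaks, and its summits lay 46 to 176 bp before the start. A site beyond the other end was listed in Res499 replicate 1 alone, with a fold of 4.19.

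Pfkl (chromosome 10, 77986947 to 78009807) is the liver-type phosphofructokinase of the first committed step. Of the 7 genes whose start site had a peak in all 9 libraries, only Pfkl had lower folds in Res499 than in both other groups without overlap. In Res499 replicate 2 its peak ended at 78009775, short of the start itself. The site (78009122 to 78010088) had folds of 9.24, 6.65 and 6.38 in B16_IFNg, 5.57, 5.56 and 4.63 in Res499 and 7.95, 11.2 and 8.95 in B16_untreated. The Res499 folds lie below those of both other groups, at means of 7.42 ± 1.58 in B16_IFNg, 5.26 ± 0.541 in Res499 and 9.36 ± 1.65 in B16_untreated (SD, n = 3 each). Within the short fragment class the values were 9.24 and 6.65 in B16_IFNg, 5.57 and 5.56 in Res499 and 11.2 in B16_untreated, so Res499 is lowest there. Within the long class they were 6.38 in B16_IFNg, 4.63 in Res499 and 7.95 and 8.95 in B16_untreated, with Res499 again lowest.

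This was 1 of the 11 sites with a peak in all 9 libraries. Among all 6166 such regions, 21.9% had lower folds in Res499 than in B16_untreated without overlap and 13.1% lower than in B16_IFNg, so a single site of 11 is no more than the lists show in general. In B16_IFNg against B16_untreated 0 of the 11 were lower, against 6.96%. Higher folds without overlap were found at 0 of the 11 in each comparison, against 0.146% of regions in B16_IFNg against B16_untreated, 0% in Res499 against B16_untreated and 0.341% in Res499 against B16_IFNg. The median fold of the full list was 6.44, 6.31 and 5.81 in B16_IFNg, 5.78, 5.76 and 5.23 in Res499 and 5.78, 6.91 and 6.42 in B16_untreated. In the equal-length lists it was 7.82, 7.22 and 6.16 in B16_IFNg, 6.99, 5.76 and 5.60 in Res499 and 6.68, 11.03 and 8.46 in B16_untreated. Res499 and B16_untreated overlap in both, with the 2 lowest equal-length medians in Res499. Against B16_IFNg the Res499 medians were lower without overlap in the full lists and overlapped in the equal-length lists. The part of these medians in the Pfkl values was not tested. By rank, which each library sets for itself, Pfkl stood at 2206, 5840 and 2842 in B16_IFNg. It stood at 6271, 4347 and 6201 in Res499 and 1336, 2996 and 2437 in B16_untreated. By rank Res499 overlaps B16_IFNg and lies behind B16_untreated without overlap, and the share of all regions with such ranks was not counted. A downstream site at the end of Cfap410 was also open in all 9 libraries, with folds of 5.41 to 9.89. The 3 other sites of the locus were weak: 1 near Cfap410 was listed in 1 library of each group, 1 in B16_untreated replicate 2 alone and 1 in B16_IFNg replicate 1 alone, and 0 were in an equal-length list.

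**Figure D3:**
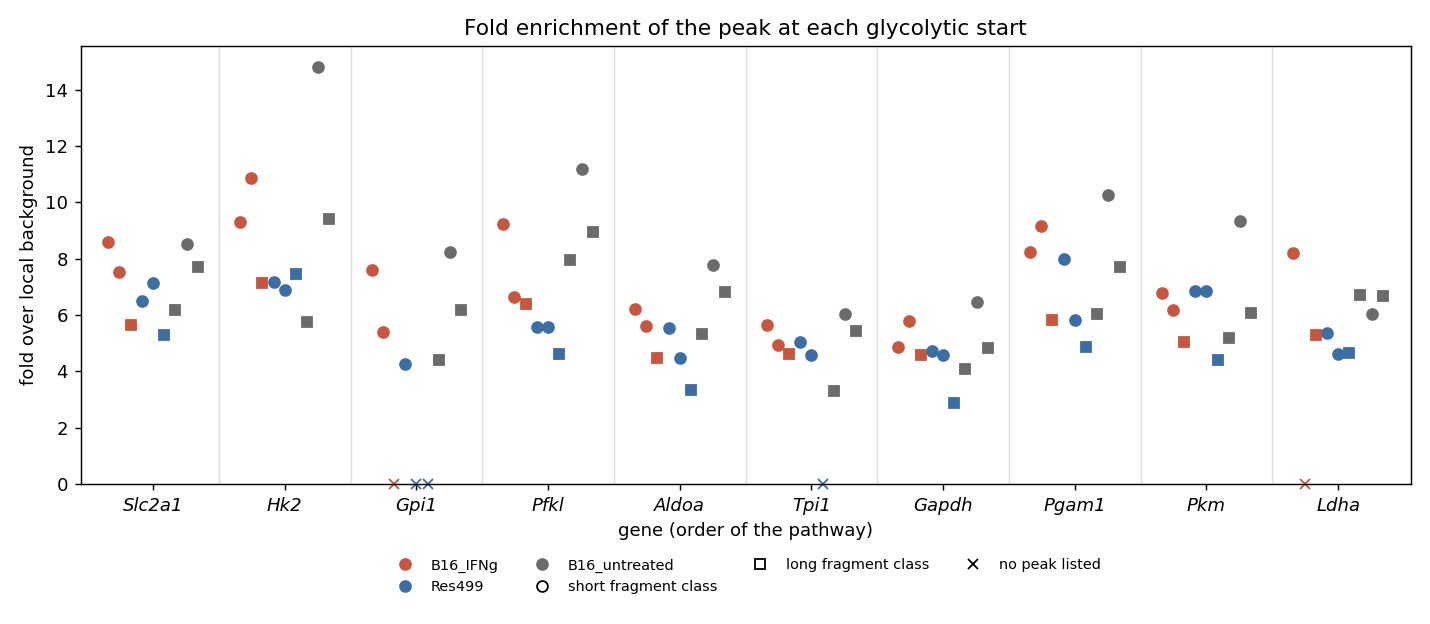
Fold enrichment (linear, over the local background) of the best peak of the site at the start of each gene, which need not cover the start. Each library has 1 point, with B16_IFNg, Res499 and B16_untreated from left to right, circles for the short and squares for the long fragment class. Crosses on the axis stand for no listed peak and are not measured zeros; Hk2 reaches 14.8, and for Pfkl the Res499 points of 4.63 to 5.57 lie below the others.

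Aldoa (chromosome 7, 126795234 to 126800994), aldolase A, splits fructose 1,6-bisphosphate. RefSeq windows list 3 starts, and the site at the 2 inner ones (126798916 to 126800126) had folds of 6.20, 5.60 and 4.47 in B16_IFNg, 5.52, 4.48 and 3.33 in Res499 and 5.34, 7.76 and 6.80 in B16_untreated. The groups overlap, and in Res499 replicate 3 the peak ranked 10008 and lay outside the equal-length list. In Res499 replicate 2 the peak (126799596 to 126799807) held neither inner start and covered 0 bases of their windows. The window of the most upstream start held no peak in any library. It has no CpG dinucleotide and a GC content of 52.7%, while the other 2 windows have 65.7%. A site at the end of Ppp4c, downstream, had a peak in all 9 libraries with folds of 4.43 to 8.94, and a site upstream was listed in 1 B16_IFNg, 0 Res499 and 2 B16_untreated libraries.

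Tpi1 (chromosome 6, 124810586 to 124814158), triose-phosphate isomerase, had a site at its start (124813645 to 124814660) with folds of 5.63, 4.95 and 4.62 in B16_IFNg and of 5.03 and 4.58 in Res499 replicates 1 and 2. Res499 replicate 3 listed no peak there. In B16_untreated the folds were 3.30, 6.02 and 5.42, and the groups overlap. A site 831 bp beyond its other end and 55 bp inside an end of Spsb2 (124808659 to 124809755) was listed in 2 B16_IFNg, 0 Res499 and 2 B16_untreated full lists, of which 1, 0 and 1 were in the equal-length lists. A site 4370 bp from Tpi1 on that side was open in all 9 libraries, with ranks of 685 to 4858.

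Gapdh (chromosome 6, 125161852 to 125166467), which oxidises glyceraldehyde 3-phosphate, had the widest site of the 10 loci, of 2092 bp (125165134 to 125167225). Its folds were low, at 4.88, 5.78 and 4.58 in B16_IFNg, 4.71, 4.58 and 2.86 in Res499 and 4.09, 6.45 and 4.84 in B16_untreated, while its ranks were 4738, 2591 and 1406 in B16_IFNg, 3289, 4273 and 8135 in Res499 and 1393, 3309 and 2073 in B16_untreated. The groups overlap in both. The pileup at its summit was 35, 29 and 50 fragments in B16_IFNg, 38, 22 and 40 in Res499 and 89, 62 and 89 in B16_untreated. The other end of Gapdh, shared with an end of Iffo1 (125160932 to 125161993), had a peak in 2 B16_IFNg, 1 Res499 and 3 B16_untreated libraries, and in 2, 1 and 2 equal-length lists. A site within the gene was listed in Res499 replicate 1 alone, with a fold of 3.66.

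The fold sets the summit against the local background in the way given above, and that background was high at Gapdh. Relative to the lowest background among the peaks of the library, the background at the Gapdh start was 6.27, 5.64 and 7.20 times in B16_IFNg, 6.74, 3.71 and 7.04 times in Res499 and 10.5, 11.3 and 11.1 times in B16_untreated. Over all peaks of a library the median was 1.41 to 1.75 times, and 0.0599% to 0.717% of peaks had a higher background than Gapdh. At the starts of Hk2 and Tpi1, also on chromosome 6, it was at most 6.65 and 5.79 times, and at those of Slc2a1, Pfkl, Pgam1 and Ldha 1.30 to 3.56 times.

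These backgrounds were lower in B16_IFNg than in B16_untreated without overlap at 9 of the 11 sites with a peak in all 9 libraries, and lower in Res499 at 8. Among all 6149 such regions with a recovered background this held for 72.2% and 58.7%, and the reverse for 0.114% and 0.179% (0 of the 11 sites in each), so the shift runs through the libraries and is not read as one of the glycolysis genes. Between Res499 and B16_IFNg it was lower at 0 and higher at 0 of the 11, against 2.67% and 5.71% of all regions.

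**Figure D4:**
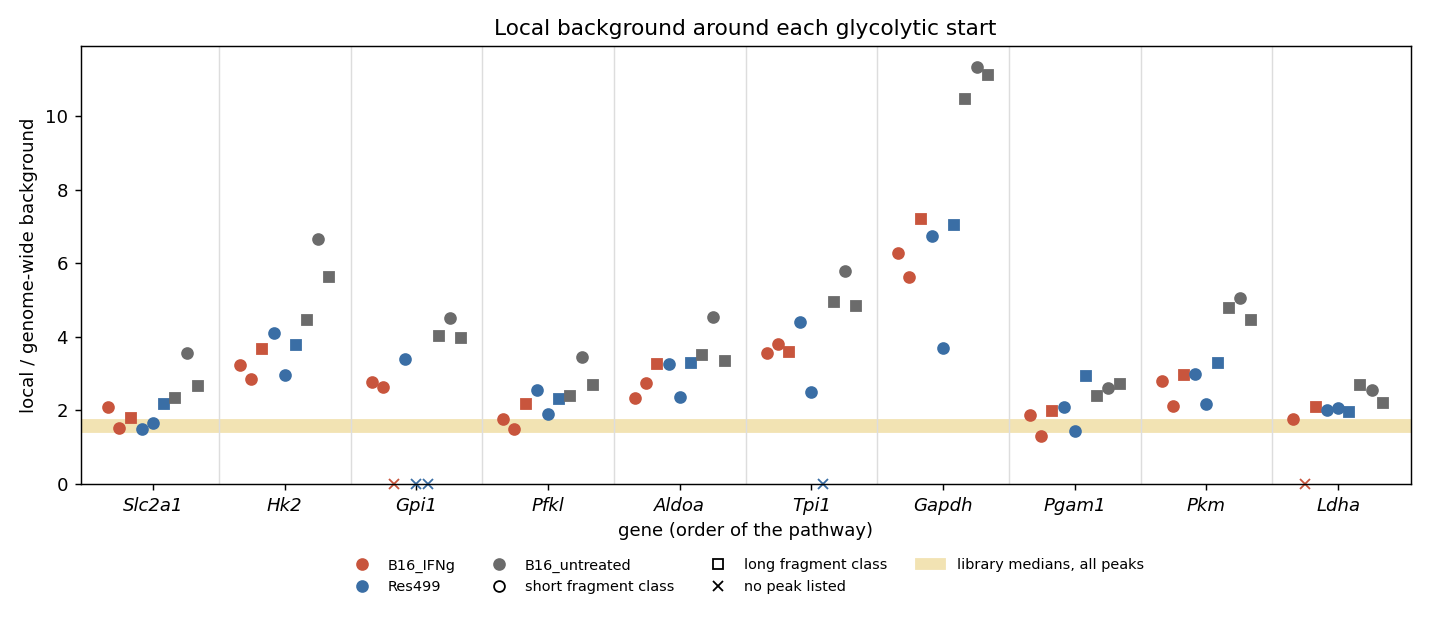
Local background of the best peak of the site at the start of each gene, which need not cover the start. Values are multiples of the lowest background of the library, with 1 point per library in the same order and symbols. Crosses on the axis stand for no listed peak, and the band spans the library medians over all peaks, 1.41 to 1.75. Gapdh lies above the other 9 genes in each of the 9 libraries, and its B16_untreated points are the highest.

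Of the later steps, Pgam1 and Pkm had a peak at the start in all 9 libraries and Ldha in 8. Pgam1 (chromosome 19, 41911871 to 41918665), phosphoglycerate mutase 1, had its start as the sole site of its locus (41911616 to 41912522), with folds of 8.23, 9.16 and 5.81 in B16_IFNg, 7.98, 5.83 and 4.87 in Res499 and 6.02, 10.3 and 7.70 in B16_untreated. Pkm (chromosome 9, 59656576 to 59679372), the pyruvate kinase of muscle and tumours, had folds of 6.78, 6.19 and 5.03 in B16_IFNg, 6.84, 6.85 and 4.42 in Res499 and 5.20, 9.35 and 6.06 in B16_untreated at its start (59656014 to 59657566). For both genes the groups overlap. Within Pkm, 2 further sites were listed in B16_untreated replicates 2 and 3, which have the longest lists, and in 0 of the equal-length lists.

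Ldha (chromosome 7, 46842274 to 46855627), lactate dehydrogenase A, had a site at the first of its 2 listed starts (46845371 to 46846153) with folds of 8.21 and 5.31 in B16_IFNg replicates 1 and 3 and no peak in replicate 2. The folds were 5.36, 4.62 and 4.66 in Res499 and 6.72, 6.03 and 6.68 in B16_untreated. In the Res499 libraries all 3 folds lie below those of B16_untreated. Within the short fragment class they were 5.36 and 4.62 against 6.03, and within the long class 4.66 against 6.72 and 6.68. Among the 6166 regions with a peak in all 9 libraries, of which this site is not one, 21.9% were lower in the same way. The peak of B16_untreated replicate 2 ranked 13835 and was not in the equal-length list, while the ranks in Res499 were 8222, 6831 and 7071. The start was called in 2 B16_IFNg, 3 Res499 and 2 B16_untreated equal-length lists. A site 2874 bp upstream of the annotated gene (46838131 to 46839400) was listed in 3 B16_IFNg, 2 Res499 and 3 B16_untreated full lists and in 2, 1 and 2 equal-length lists. The window of the second listed start and a site 8769 bp upstream had a peak in B16_untreated replicate 2 alone.

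Set against all gene starts that carry a peak, the glycolytic ones had lower median folds in 8 of the 9 libraries and lay on either side by rank. Between 7 and 10 of the 10 genes had a peak exactly on a listed start in a library, and their median rank was 3474, 5840 and 4716 in B16_IFNg, 4973, 4273 and 5506 in Res499 and 3543, 5670 and 4344 in B16_untreated. Over all coding genes with such a peak the medians were 4567, 3943 and 3977 in B16_IFNg, 4242, 3251 and 4002 in Res499 and 4671, 5466 and 5301 in B16_untreated. Their median was better than that of all genes in B16_IFNg replicate 1 and in B16_untreated replicates 1 and 3, and worse in the other 6. Their median fold was 7.91, 6.19 and 5.31 in B16_IFNg, 5.55, 5.83 and 4.64 in Res499 and 5.54, 8.37 and 6.74 in B16_untreated. Over all coding genes it was 7.81, 7.50 and 6.37 in B16_IFNg, 7.13, 6.32 and 5.70 in Res499 and 6.55, 10.3 and 7.98 in B16_untreated, so the glycolytic median was above it in B16_IFNg replicate 1 and below it in the other 8. In all 9 libraries a peak covered the exact start of 5 of the 10 genes, Slc2a1, Hk2, Gapdh, Pgam1 and Pkm, and of 19.5% of the 17492 coding genes with a listed start.

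The rest of the pathway was followed in a list of 48 genes, from which those named in this paragraph were picked after their calls were seen. RefSeq windows list a start for 42 of them, and 20 of these had a peak on it in all 9 libraries, while 6 had one in none: Hk3, Pgam2, Eno3, Pklr, Slc16a3 and Pdk4. Over all 17492 coding genes with a listed start, 19.5% had one in all 9 libraries, and the share with one in none was not counted. Among the other isozymes and steps, the enolase gene Eno1, the lactate dehydrogenase gene Ldhb, Hk1 and Bpgm had a peak on the start in all 9. Among the controllers of flux these were Tigar, Pdk1, Pfkfb2 and Pfkfb4. Of 5 genes of the hypoxia-inducible factors with a listed start, 3 had one in all 9: Hif1a, its partner Arnt and Vhl, which marks Hif1a for destruction. The prolyl hydroxylases that sense oxygen did not, with Egln1 at 3 B16_IFNg, 2 Res499 and 3 B16_untreated libraries and Egln3 at 1, 3 and 3. Pgk1, which makes the first ATP after Gapdh, had a peak exactly on its start in 3 B16_IFNg, 1 Res499 and 3 B16_untreated libraries, and within 1 kb of an end in all 9. Pfkp, the platelet-type phosphofructokinase, also had one on its start in 3 B16_IFNg, 1 Res499 and 3 B16_untreated libraries. Of the pentose phosphate branch, which leaves glycolysis at glucose 6-phosphate, 5 of 7 genes were open on the start in all 9. Its first enzyme, G6pdx, had a peak there in 2 B16_IFNg, 0 Res499 and 2 B16_untreated libraries. These are counts of the full lists, where a peak lay on the start of 40.4%, 34.0% and 33.2% of coding genes in B16_IFNg. The shares were 38.1%, 27.0% and 35.2% in Res499 and 41.1%, 45.4% and 44.7% in B16_untreated. In the equal-length lists, within 1 kb of an end, Pgk1 was called in 3, 3 and 3, Pfkp in 2, 1 and 3 and G6pdx in 1, 0 and 1.

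Of the 48 genes 1 had a region within 1 kb of an end that was lost in Res499 against B16_untreated, Pdha1 (chromosome X, 160137835 to 160138731), among 30 genes with a region called in at least 3 of the 6 libraries. Over all regions 1.52% were lost in that comparison, and 1 of 30 genes is too few to set apart from that. There were 0 gained, against 0.919% of all regions. In B16_IFNg against B16_untreated 0 of 29 genes had a gained and 0 a lost region, against 0.59% and 0.906% of all regions, and in Res499 against B16_IFNg 0 of 28 had either, against 0.627% and 0.875%. Pdha1 was called in 2 B16_IFNg, 0 Res499 and 3 B16_untreated equal-length lists and in 3, 1 and 3 full lists. A peak lay exactly on its start in 3 B16_IFNg, 0 Res499 and 3 B16_untreated libraries.

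The edges of the selection were few. The farthest site kept lay 9082 bp from Pfkl, with a fold of 4.46 in B16_IFNg replicate 1, and the nearest one left out lay 10491 bp from Hk2, with a peak in 2 libraries and a highest fold of 8.31. Reads of Aldoa, Gapdh, Pgam1 and Ldha may also map to processed copies. The gene table names 2, 3, 2 and 3 of these by the symbol of the gene followed by -ps. Copies under other names were not counted, for these or the other genes. Such copies share exons and lack the promoter, and how reads with several matches were treated is not given in the sources used here.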

How the data were processed

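ATAC-seq was run on 9 libraries of sorted mouse tumour cells, 3 each of B16_IFNg, Res499 and B16_untreated, and 1 peak list per library was used. The submitters' processing notes name CASAVA, then list cutadapt (1.9), Bowtie2 (2.2.4) and MACS2, and give GRCm38 and mm10 as builds; the MACS2 version and settings, duplicate removal and any shift of reads to the cut site are not given in the sources used here. The authors deposited for each peak a score, a fold enrichment, a −log10 p, a −log10 q and the position of its summit, in the column order that the caller writes, and these describe peaks within their own list. The score was not used further. The depth of the libraries is unknown, since the lists hold no read counts.

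Peaks on the autosomes, X and Y were ranked by −log10 p, with equal values ordered by fold, and up to 224 peaks tied with the last one kept in the equal-length list of 9214. Overlapping peaks (1 base or more) were joined over libraries. A region was tested in a comparison where at least 3 of the 6 libraries called it. Summit pileup and local background were solved from fold and −log10 p (Poisson, tolerance 0.01), which gave a whole pileup for 99.98% to 100% of peaks; counts this small carry counting error. Calls and recovery were tested on simulated data. Software was Python 3.11.15 with pandas 2.3.3, numpy 2.4.6, scipy 1.17.1 and matplotlib 3.10.9.

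The 10 genes, the gene lists and the rules were chosen with earlier results of these data known. Printed in full were sites within 1 kb of an end of the gene, gained or lost sites, the most widely shared other site of a locus, and up to 5 genes with the calls of the Gpi1 start; of the pathway list, genes with a gained or lost region. Gene positions and promoter windows came from RefSeq (GRCm38.p6), and all 48 pathway genes matched. Marker genes of melanocytes, leukocytes, fibroblasts, endothelium and keratinocytes were looked up in the same way. Alternatives were full or shorter lists, ranking by fold, wider merging, 50% cover, a lenient rule, nearer sites and each library left out. A further motif that was counted is not reported here.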

Additional observations from a re-analysis of the deposited data

How the results depend on the processing

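The loss of the Gpi1 start in Res499 against B16_untreated was kept (1 site) when peaks up to 250 bp apart were merged. It was also kept when peaks with equal −log10 p were ordered by position (a choice made after seeing the data). Leaving out each library in turn could not undo it, since a site that meets the rule with all libraries also meets it with fewer. The loss was not called (0 sites) with all deposited peaks, lists of 4607 peaks, ranking by fold or a peak covering 50% of the region. Libraries with a call at that start were then 2 in B16_IFNg, 1 in Res499 and 3 in B16_untreated with all peaks, 1, 0 and 0 with the shorter lists, 2, 0 and 0 with ranking by fold and 1, 0 and 1 with 50% cover.

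A lenient rule, under which 1 library of either group or of each could go against the pattern, gained the site at the Pdcd2l end in both B16_IFNg and Res499 against B16_untreated (1 site each) and lost 3 sites in Res499 against B16_untreated and 3 against B16_IFNg, those at the Gpi1 start, at the end of Gapdh shared with Iffo1 and upstream of Ldha. Among sites called in at least 2 of the 6 libraries, those are 17.6% of 17 in each comparison, against 14.6% of 11069 regions lost in Res499 against B16_untreated and 12.5% of 10933 against B16_IFNg. The sites gained are 5.56% of 18 and 5.88% of 17, against 10.7% and 11% of regions. The sites are too few to set apart from these shares. With 50% cover the Pgam1 start was lost in B16_IFNg against B16_untreated (1 site). With a library left out, the glycolysis sites lost in Res499 against B16_IFNg numbered 0 to 1, the 1 being the Gpi1 start without B16_IFNg replicate 3. Within 2.5 kb of the gene bodies lay 19 sites, and peaks with a −log10 q of at least 5 gave 24 sites.

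Counts over all regions moved more. In B16_IFNg against B16_untreated, 5 regions were gained and 771 lost with all peaks, 1187 and 1395 with the lenient rule, 25 and 408 with 50% cover, 103 gained with ranking by fold and 54 lost with the shorter lists. In Res499 against B16_untreated, the counts were 8 and 1210 with all peaks, 1216 and 1612 with the lenient rule, 21 and 617 with 50% cover and 62 lost with the shorter lists. In Res499 against B16_IFNg, they were 33 and 137 with all peaks, 1183 and 1371 with the lenient rule and 52 lost with the shorter lists. With a library left out, gained and lost regions ranged over 110 to 191 and 154 to 281 in B16_IFNg against B16_untreated, 143 to 240 and 228 to 410 in Res499 against B16_untreated, and 127 to 176 and 160 to 239 in Res499 against B16_IFNg, where a group of 2 makes the rule easier to meet. The cause of the other shifts was not tested. No paired analysis was possible because the results are calls that come from no test or fit, and the labels tie the replicate numbers to no shared mouse, day or batch. A weak peak under the limit of a list cannot be told from none, and the lists carry no depth.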
